A study of Mus musculus with 6 samples.

Results

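The ATP-binding cassette (ABC) transporter genes of the mouse were compared between an ovarian surface epithelial cell line and the malignant line that arose from it in culture. Members were chosen by symbol alone: every gene named Abc, a subfamily letter from a to g and a number. This gave 50 of the 20405 genes with a symbol on the array, 16 in subfamily A, 10 in B, 10 in C, 4 in D, 1 in E, 3 in F and 6 in G. They were read by 52 probe sets, and where a gene had more than 1 probe set (Abca3 and Abcb5) the brightest on average over the 6 arrays was used. The 9 genes best known for pumping drugs out of cells (Abcb1a, Abcb1b, Abcc1, Abcc2, Abcc3, Abcc4, Abcc5, Abcc10 and Abcg2) were set apart as drug efflux genes.

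RNA was profiled on Affymetrix Mouse Gene 1.0 ST arrays, 3 for each line. M0505 is an early passage line from the ovarian surface epithelium of FVB/N mice, and STOSE is the spontaneously transformed line obtained by passaging M0505 cells over a long period. No engineered allele or drug treatment is named for either line, and both were grown in the same murine ovarian surface epithelial medium of α-MEM with fetal calf serum, EGF, an insulin supplement and antibiotics. Each group is 1 line, both lines are aneuploid by the karyotypes of the study, and the 3 arrays of a line are labelled biological replicates, so the tests below measure the spread between cultures of a line and not between independent transformations. With 3 arrays against 3, an exact permutation test of a single gene cannot give a p below 0.1, so all tests are from one limma model fitted across all 20405 genes.

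Values are the log2 RMA values deposited for each array, which describe brightness and not molecule number, so the order of different genes by level is not read as an order of expression. A gene was called at a Benjamini-Hochberg adjusted p under 0.05 together with a fold change of at least 2. As a gauge of unspecific signal, the 95th percentile of 1134 probe sets for olfactory receptors, genes not thought to be active in these cells, was 4.72 on the log2 scale, and it is called the background level here, against which the mean of each line was set. The array medians over genes were 6.48, 6.49 and 6.46 in M0505 and 6.29, 6.28 and 6.25 in STOSE cells. Setting the array medians equal adds 0.20 to every log2 fold change and moves the median over all genes from 0.08 to 0.28, so medians of gene groups are also given relative to that of all genes or with array medians centred.

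The tissue label was checked against markers of the mesothelial surface epithelium. Upk3b (mean log2 value 12.25 in M0505 and 11.91 in STOSE), Wt1 (11.39 and 10.76) and Msln (11.13 and 10.52) were bright in both lines. Krt19 and Krt8, keratins of simple epithelia, were bright in M0505 alone, with log2 fold changes of -5.56 and -4.55 in STOSE cells, whereas the keratins Krt18 (11.34 and 10.50) and Krt7 (11.26 and 10.23) were bright in both lines. Cdh1 (4.79 and 4.82) and Lhx9 (4.63 and 4.71) lay near the background level in both lines.

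ABC proteins use the energy of ATP hydrolysis to move substrates across membranes. Full transporters carry a pair of membrane domains and a pair of ATP-binding cassettes in one chain, shorter members work as dimers, and the members of subfamilies E and F have no membrane domain and act on ribosomes. Subfamily A and part of subfamily G handle lipids and sterols, subfamily D works mainly in peroxisomes, and several members of subfamilies B, C and G export drugs and drug conjugates, which is why they are studied in ovarian cancer treated with platinum and taxanes.

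Promoter sequence from RefSeq (GRCm38.p6, 250 bases before to 50 after the start) was found by symbol for 38 of the 50 genes, as 45 promoters. Among those with no entry were Abca6, Abcb8, Abcc1, Abcc3, Abcc6, Abcc8, Abcd2, Abcd4, Abcg1 and Abcg4. The 120 bases before the start are printed 5′ to 3′ for 5 genes on which the results turn: Abca1, the only member called higher in STOSE cells; Abca9 and Abca5, which lie in one gene block and were called lower; and Abcb1a and Abcb1b, the neighbouring P-glycoprotein genes whose M0505 arrays lay far apart. Capitals mark every match, on either strand, to the motifs described in the next paragraph.
Abca1: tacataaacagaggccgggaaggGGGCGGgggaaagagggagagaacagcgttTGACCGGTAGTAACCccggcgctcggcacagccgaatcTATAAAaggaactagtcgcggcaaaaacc
Abca9: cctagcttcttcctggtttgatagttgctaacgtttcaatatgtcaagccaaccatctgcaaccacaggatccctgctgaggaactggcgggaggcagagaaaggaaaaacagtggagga
Abca5: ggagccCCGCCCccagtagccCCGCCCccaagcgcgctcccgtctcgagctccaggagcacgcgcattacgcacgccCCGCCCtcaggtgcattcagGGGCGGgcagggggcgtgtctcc
Abcb1a: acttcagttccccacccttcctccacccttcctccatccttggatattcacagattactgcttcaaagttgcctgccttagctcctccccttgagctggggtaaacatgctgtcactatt
Abcb1b: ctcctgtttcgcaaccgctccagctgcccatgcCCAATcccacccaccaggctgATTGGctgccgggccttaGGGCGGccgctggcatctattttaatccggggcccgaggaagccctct
The stretches lie at chr4:53159896-53160015 on the minus strand (Abca1), chr11:110168154-110168273 and chr11:110337717-110337836 on the minus strand (Abca9 and Abca5), and chr5:8566971-8567090 and chr5:8798027-8798146 on the plus strand (Abcb1a and Abcb1b).

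The Abca1 stretch held a TATA box (TATAAA), a GC box (GGGCGG) and a direct repeat, GGTNA and then GGTCA with any 5 bases between them, which is seen above on the opposite strand. Direct repeats of this kind are known to be bound by LXR, the oxysterol receptor that activates Abca1. The repeat was found in 0.207% of all 32851 RefSeq promoters and in 1 of the 45 member promoters, and its letters were relaxed after the Abca1 promoter had been read, so this match is a description only. GC boxes were in 46.7% of the member promoters and 35.7% of all promoters, CCAAT boxes in 35.6% and 37.4%, TATA boxes in 15.6% and 13.6%, E-boxes (CACGTG) in 13.3% and 7.15%, and the antioxidant response core TGACNNNGC in 15.6% and 12.4%. The AP-1 letters TGANTCA were in 7.81% of all promoters and in 0 of the 45. Abcb1b carried 2 matches to CCAAT and 1 GC box in its stretch, Abca5 carried 4 GC boxes, and the Abcb1a and Abca9 stretches carried none of these motifs.

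Across the 50 ABC genes, 1 was called higher in STOSE cells and 6 were called lower. These are 2.0% and 12.0% of the members, against 4.9% and 7.59% of all genes called higher and lower (1000 and 1548 genes). With array medians centred the counts were 4 and 6 of the 50 members and 1466 and 1177 of all genes. Abca1 was the gene that rose, and Abca2, Abca3, Abca5, Abca6, Abca9 and Abcc3 were those that fell. At the adjusted p alone, 11 members were higher (22.0%, against 31.6% of all genes) and 18 were lower (36.0%, against 24.8%), and the other 21 did not pass. The 3 arrays of one line lay entirely above those of the other for 33 members (66.0%, against 64.6% of all genes). The median log2 fold change over the members was -0.06, which is 0.14 below that of all genes on any scaling by array medians, and it became 0.14 with array medians centred. Of the 50 genes, 14 were under the background level in both lines, so 72.0% were over it in at least 1 line, as were 72.7% of all genes.

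**Figure D1:**
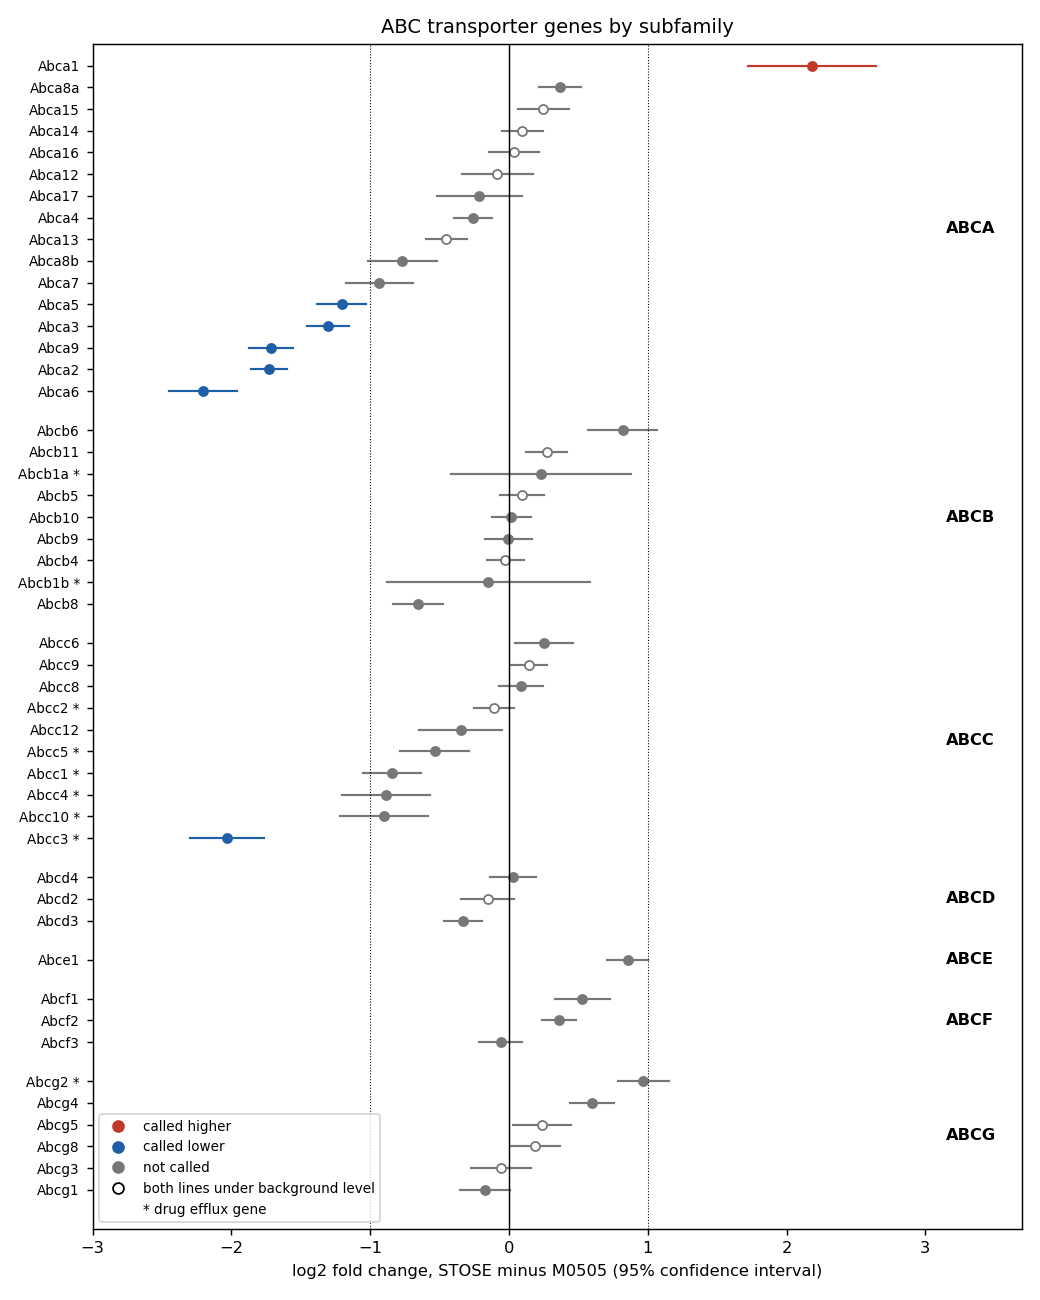
Log2 fold change of the ABC genes reported here, STOSE minus M0505, with its 95% confidence interval from limma, grouped by subfamily and ordered by size within each; dotted lines mark 2-fold and open circles mark genes under the background level in both lines. Abca1 stands alone on the right at 2.18, and 5 of the 6 genes called lower are in subfamily A.

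Subfamily A held 6 of the 7 called members, 1 higher and 5 lower (6.25% and 31.2% of its genes, against 4.9% and 7.59% of all genes). At the adjusted p alone 3 of its 16 genes were higher and 9 were lower (18.8% and 56.2%, against 31.6% and 24.8%). In subfamily C, 1 of 10 genes was called lower, and 1 was higher and 6 were lower of those 10 at the adjusted p alone. Subfamily B had no called gene and only 3 of 10 past the adjusted p, 2 higher and 1 lower. None of the 4 genes of subfamily D was called and 2 were lower at the adjusted p alone, whereas all of the genes past it in subfamilies E (1 of 1), F (2 of 3) and G (2 of 6) were higher. The median log2 fold change was -0.36 in A, 0.02 in B, -0.44 in C, -0.24 in D, 0.36 in F and 0.21 in G, and with array medians centred each of these medians kept its sign (-0.16, 0.22, -0.24, -0.04, 0.56 and 0.41). The difference between subfamilies was not tested.

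Among the 9 drug efflux genes, 5 passed the adjusted p as lower (55.6%, against 24.8% of all genes) and 1 as higher (11.1%, against 31.6%). Abcc3, Abcc1, Abcc4, Abcc5 and Abcc10 were lower in STOSE cells, Abcg2 was higher, and Abcb1a, Abcb1b and Abcc2 did not pass the adjusted p. By the full rule 1 of the 9 was called (Abcc3, lower; 11.1%, against 7.59% of all genes). The median log2 fold change of the 9 was -0.53, and -0.33 with array medians centred. For the 41 other members it was -0.00, which is 0.08 below the median of all genes, and it became 0.20 with array medians centred.

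Abcc3 codes for MRP3, which exports glucuronide conjugates and bile salts. It read 7.01, 7.32 and 6.99 in the M0505 arrays and 5.22, 5.12 and 4.88 in the STOSE arrays (log2 values). All M0505 arrays were above all STOSE arrays, which lay only just over the background level. The log2 fold change was -2.03 ± 0.12 (SE), or 4.09-fold lower (adjusted p = 1.82e-06), and it stayed between -2.11 and -1.93 when any 1 array was left out. On the array, fewer cells with the transcript and less transcript in each cell cannot be told apart, here or for any other gene.

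Abcc1 codes for MRP1, an exporter of glutathione conjugates and anthracyclines. Its log2 values were 10.85, 10.60 and 10.58 in M0505 and 9.96, 9.77 and 9.78 in STOSE cells. The lines did not overlap, and STOSE cells were 1.79-fold lower (log2 fold change -0.84 ± 0.09 SE, adjusted p = 7.68e-05), which is short of 2-fold. Abcc4 (MRP4), known for export of cyclic nucleotides and prostaglandins, read 8.74, 8.36 and 8.33 against 7.80, 7.59 and 7.37. It was 1.85-fold lower without overlap (adjusted p = 6.57e-04).

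Abcc10 (MRP7), which can carry taxanes, read 8.09, 7.73 and 7.62 in M0505 and 7.15, 6.84 and 6.76 in STOSE cells. Its difference, -0.90 ± 0.14 (SE) on the log2 scale, was without overlap and became -1.02, past 2-fold, when STOSE replicate 1 was left out. Abcc5 (MRP5), another exporter of cyclic nucleotides, read 8.34, 8.07 and 7.95 against 7.71, 7.55 and 7.49. It was 1.45-fold lower (adjusted p = 0.00291), again without overlap. Abcc2, the canalicular pump MRP2, lay under the background level on every array, between 4.17 and 4.30 in M0505 and between 4.08 and 4.17 in STOSE cells.

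Abcg2 codes for the breast cancer resistance protein, a transporter that works as a dimer and also clears dyes from side population cells. Its log2 values were 8.27, 8.01 and 8.16 in M0505 and 9.03, 9.18 and 9.14 in STOSE cells. All STOSE arrays were above all M0505 arrays. The rise was 1.96-fold (log2 fold change 0.97 ± 0.08 SE, adjusted p = 1.52e-05), just short of the 2-fold limit. It was past that limit after a further quantile normalization (1.03), with array medians centred (1.17), without M0505 replicate 1 (1.03) and without STOSE replicate 1 (1.01).

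Abcb1a and Abcb1b together code for P-glycoprotein in the mouse, where humans have a single gene. Abcb1a read 8.18, 7.04 and 6.98 in M0505 and 7.66, 7.69 and 7.54 in STOSE cells. Abcb1b read 9.56, 8.26 and 8.23 in M0505 and 8.63, 8.60 and 8.37 in STOSE cells. In both genes M0505 replicate 1 was above every STOSE array while M0505 replicates 2 and 3 were below every STOSE array. The log2 fold changes were 0.23 (95% confidence interval -0.42 to 0.88, adjusted p = 0.509) for Abcb1a and -0.15 (-0.88 to 0.58, adjusted p = 0.709) for Abcb1b, so with all arrays no difference between the lines was detected, and each interval holds differences in both directions. Without M0505 replicate 1 the values were 0.62 (adjusted p = 2.81e-04) and 0.29 (adjusted p = 0.0319), higher in STOSE cells for both. The paralogs are similar in sequence, and how far their probe sets read each other was not tested.

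The first M0505 array stood apart for several of these genes. The SD of the 3 M0505 arrays was 0.68 for Abcb1a and 0.76 for Abcb1b, wider than for 99.93% and 99.97% of all genes. M0505 replicate 1 was above the mean of the other M0505 arrays by 1.17 for Abcb1a, 1.31 for Abcb1b, 0.41 for Abcc10 and 0.39 for Abcc4 on the log2 scale. It was the highest M0505 array for 8 of the 9 drug efflux genes (88.9%), with Abcc3 the exception, for 54.0% of all ABC genes and for 36.5% of all genes. It was the array farthest from the median of its line for 7 of the 9, for 44.0% of all ABC genes and for 43.6% of all genes. Its array median lay between those of the other M0505 arrays. STOSE replicate 1 was likewise the highest STOSE array for 6 of the 9 drug efflux genes (66.7%) and for 52.0% of all ABC genes, against 40.9% of all genes, and was the farthest from its median for 52.0% of all ABC genes, against 43.7% of all genes. When each array was left out in turn, the log2 fold change ran from -0.90 to -0.76 for Abcc1, from -0.995 to -0.76 for Abcc4, from -0.62 to -0.42 for Abcc5, from -1.02 to -0.76 for Abcc10 and from 0.90 to 1.03 for Abcg2.

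**Figure D2:**
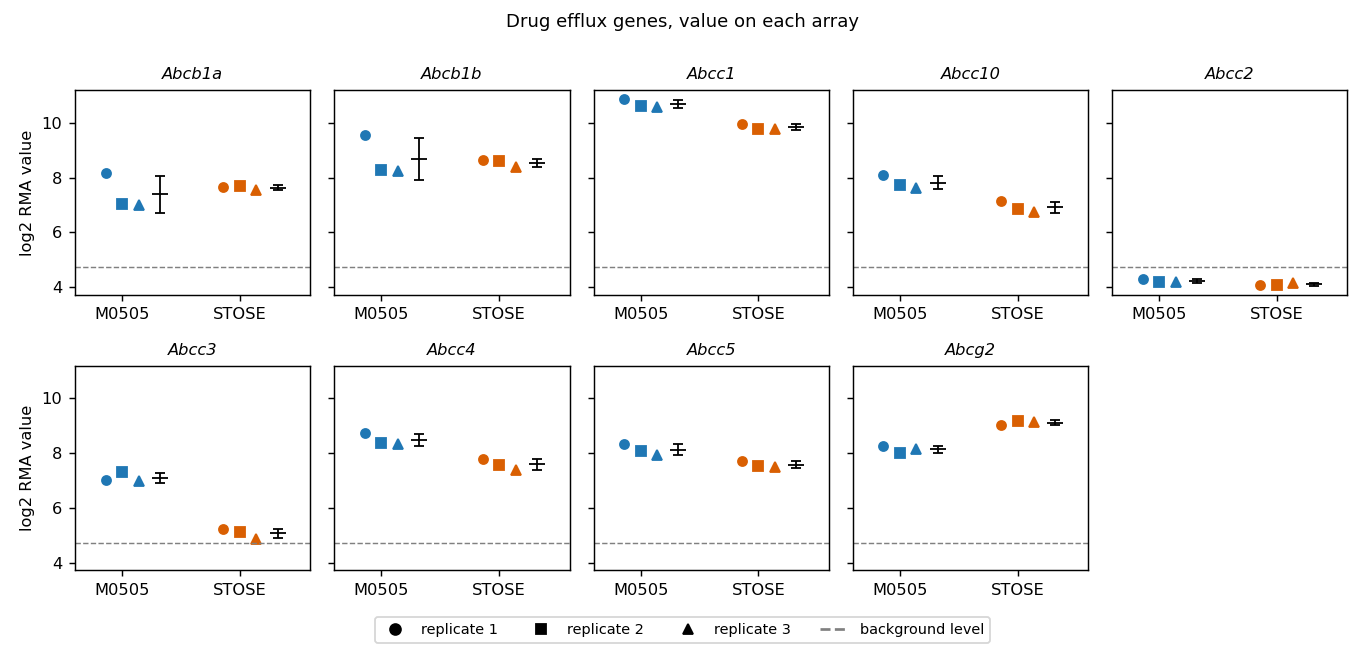
Log2 RMA value of the 9 drug efflux genes on each of the 6 arrays, with mean ± SD at the right of each line and the background level dashed. In Abcb1a and Abcb1b the circle of M0505 replicate 1 lies above all STOSE points and the other M0505 points lie below them, while in the other genes over the background level the lines are separate.

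Abca1 codes for the transporter that passes cholesterol and phospholipid to lipid-poor apolipoprotein A-I. The log2 values were 7.76, 6.96 and 7.07 in M0505 and 9.63, 9.47 and 9.23 in STOSE cells. Every STOSE array was above every M0505 array, and M0505 replicate 1 was again the highest of its line, by 0.75 over the mean of the other pair. Abca1 rose 4.54-fold in STOSE cells (log2 fold change 2.18 ± 0.20 SE, adjusted p = 2.94e-05). Leaving out any 1 array gave log2 fold changes from 2.03 to 2.43.

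The 5 genes of subfamily A that fell included the lysosomal and lamellar body transporters. Abca2, an endolysosomal lipid transporter best known in oligodendrocytes, read 8.87, 8.85 and 8.89 in M0505 and 7.09, 7.16 and 7.16 in STOSE cells. It was 3.31-fold lower (log2 fold change -1.73 ± 0.06 SE, adjusted p = 7.88e-08), with the narrowest spread of the called members. Abca3, which loads surfactant phospholipid into lamellar bodies of the lung, read 9.62, 9.58 and 9.48 against 8.19, 8.32 and 8.25. The lines did not overlap, and STOSE cells were 2.47-fold lower (adjusted p = 9.50e-07). A second, dimmer probe set of Abca3 did not show this: it read 5.84, 5.74 and 5.47 in M0505 and 5.76, 5.63 and 5.71 in STOSE cells, a log2 fold change of 0.02. With the mean of the 2 probe sets the log2 fold change of Abca3 was -0.64, and the gene was no longer called.

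Abca9, Abca6 and Abca5 belong to a cluster of ABCA genes whose products are less studied. Abca9 read 8.21, 8.15 and 8.09 in M0505 and 6.48, 6.50 and 6.33 in STOSE cells, 3.28-fold lower (log2 fold change -1.71 ± 0.07 SE, adjusted p = 2.99e-07). Abca6 read 6.39, 6.20 and 6.20 in M0505 and 4.27, 3.86 and 4.05 in STOSE cells (log2 fold change -2.20 ± 0.11 SE, adjusted p = 7.66e-07). Since all 3 STOSE arrays were under the background level, the fall is a bound: against that level Abca6 was at least 2.91-fold lower. Abca5, a lysosomal member, read 5.37, 5.53 and 5.43 in M0505 and 4.11, 4.31 and 4.30 in STOSE cells (log2 fold change -1.21 ± 0.08 SE, adjusted p = 3.33e-06). It too was under the background level in STOSE cells, which makes it at least 1.65-fold lower. That bound is short of 2-fold, so the call of Abca5 rests on the fitted value, which was -1.01 with array medians centred.

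**Figure D3:**
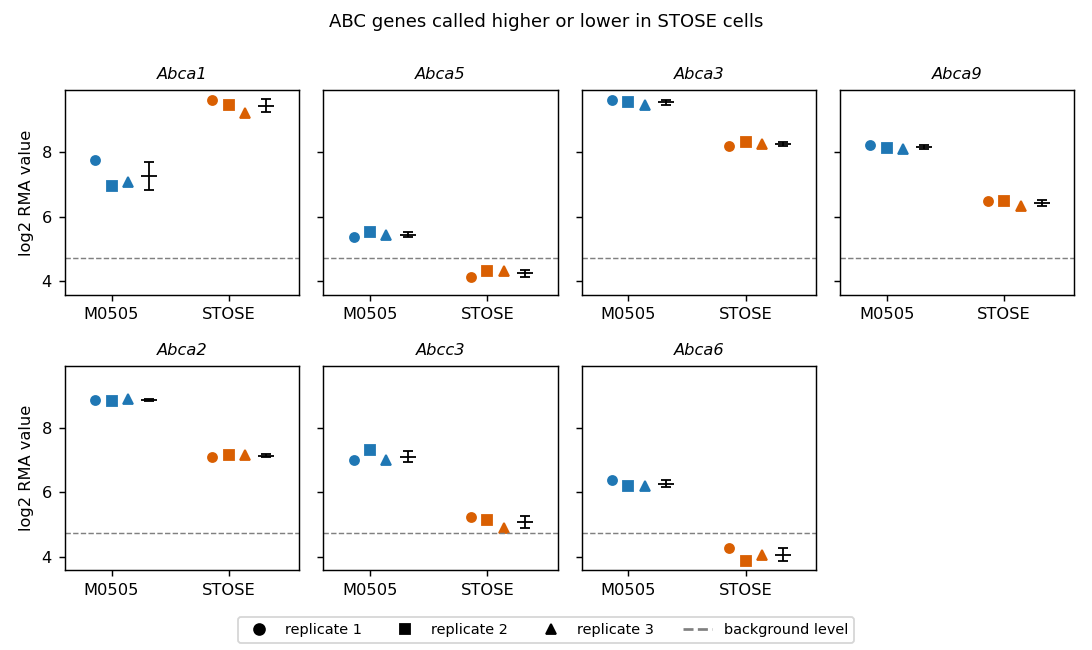
Log2 RMA value on each array of the 7 ABC genes called higher or lower in STOSE cells, with mean ± SD at the right of each line and the background level dashed. The lines are separate in every panel; Abca1 is the only gene with STOSE above M0505, and the STOSE arrays of Abca5 and Abca6 lie under the background level.

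Other subfamily A genes passed the adjusted p with smaller differences. Abca7, a phospholipid transporter of phagocytes, was 1.91-fold lower (adjusted p = 9.81e-05) and Abca8b was 1.70-fold lower (adjusted p = 3.61e-04). Abca4, the retinal transporter (-0.26), and Abca13 (-0.45) were lower and Abca8a (0.37) and Abca15 (0.25) were higher, where the bracketed values are log2 fold changes; Abca13 and Abca15 lay under the background level in both lines and Abca8a did so in M0505. Abca12, the lipid transporter of the epidermis, and Abca14, Abca16 and Abca17 did not pass, with log2 fold changes between -0.21 and 0.10.

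5 of the subfamily A genes are consecutive on chromosome 11 in RefSeq, in the order Abca8b, Abca8a, Abca9, Abca6, Abca5. Their log2 fold changes in that order were -0.77, 0.37, -1.71, -2.20 and -1.21, so the single riser of the block, which read 4.44 and 4.81 on average and so hardly left the background level, sat between genes that fell. Of the genes flanking the block, Map2k6, next to Abca5, and Kcnj2 were both under the background level in STOSE cells (means of 4.16 and 3.56) and were at least 2.46-fold and 2.95-fold lower against it. Kcnj16, between Map2k6 and Kcnj2, was dim in both lines (log2 values 3.53 and 3.51). Fam20a on the other side fell by 1.28, and 1700012B07Rik, between Fam20a and Abca8b, was dim in both lines (log2 values 3.81 and 3.97). Sox9, beyond Kcnj2, was higher by 0.95 (adjusted p = 2.89e-04), short of 2-fold. Abcc3 is on the same chromosome outside the block. All 50 members were placed on chromosomes, 18 of which held at least 1.

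**Figure D4:**
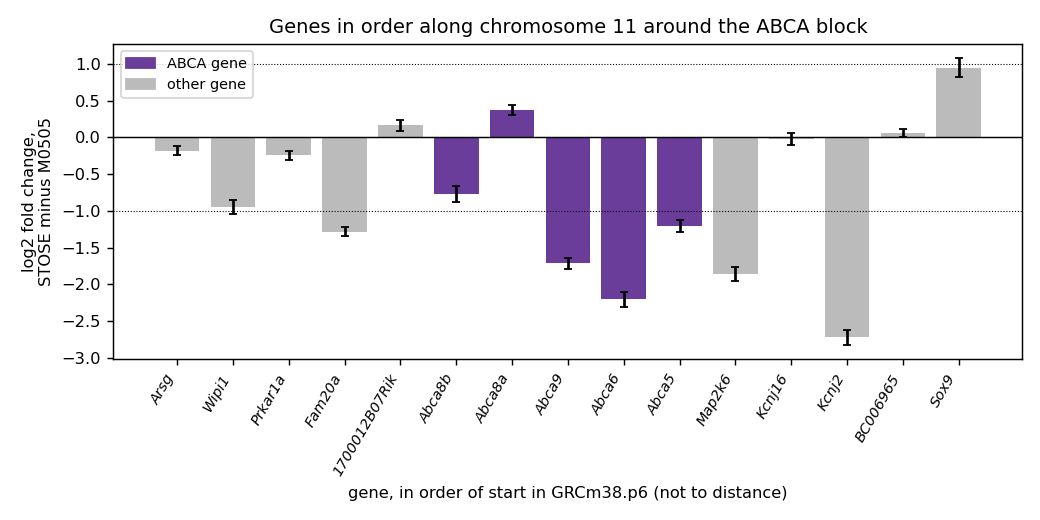
Log2 fold change ± SE, STOSE minus M0505, of genes in their order along chromosome 11 around the block of 5 ABCA genes (purple) with other genes in grey; dotted lines mark 2-fold and distances are not drawn. Fitted falls past 2-fold run from Abca9 through Map2k6, with Fam20a and Kcnj2 further out. The STOSE means of Abca6, Abca5, Map2k6 and Kcnj2 lie under the background level. Kcnj16, between Map2k6 and Kcnj2, is at -0.02, and Abca8a, Sox9, 1700012B07Rik and BC006965 are above 0.

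Genes that work beside the sterol transporters moved in both directions. In a list of 17 sterol efflux partners, LXR genes and related genes, 1 was called higher and 2 lower (5.88% and 11.8%, against 4.9% and 7.59% of all genes). At the adjusted p alone 6 were higher and 8 lower (35.3% and 47.1%, against 31.6% and 24.8%), and the median log2 fold change was -0.07, or 0.13 with array medians centred. Pltp, which transfers phospholipid to high-density lipoprotein, read 7.24, 7.63 and 7.59 in M0505 and 10.16, 10.24 and 10.35 in STOSE cells, a log2 fold change of 2.76 (adjusted p = 2.49e-07). Npc1, which moves cholesterol out of lysosomes, fell by 1.57 on the log2 scale, from a mean of 10.31 to 8.73, and Soat1, which esterifies cholesterol for storage, fell by 1.34 (adjusted p = 3.41e-07). For the receptors themselves, LXR beta (Nr1h2) was lower (-0.76, adjusted p = 1.37e-05), and LXR alpha (Nr1h3), near the background level, had a log2 fold change of 0.16 (adjusted p = 0.209).

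Subfamily G holds further cholesterol exporters. Abcg1, which loads high-density lipoprotein, read 6.07, 5.81 and 5.87 in M0505 and 5.70, 5.74 and 5.80 in STOSE cells (log2 fold change -0.17, adjusted p = 0.0980). Its close relative Abcg4 read 5.46, 5.36 and 5.40 against 6.10, 6.02 and 5.90. The arrays of Abcg4 did not overlap, and it was 1.51-fold higher in STOSE cells (adjusted p = 1.14e-04). Abcg5 and Abcg8, the partners of a sterol exporter of liver and gut that lie side by side on chromosome 17, were under the background level in both lines, as was Abcg3. Over the 18 members known for lipid and sterol transport, 1 was called higher and 5 lower, the 6 already given (5.56% and 27.8%, against 4.9% and 7.59% of all genes). Of the 18, 4 were higher (22.2%, against 31.6% of all genes) and 9 lower (against 24.8%) at the adjusted p alone.

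In subfamily B, beside the P-glycoprotein genes already given, 3 genes passed the adjusted p. Abcb6, a porphyrin transporter of mitochondria and lysosomes, read 7.94, 7.59 and 7.61 in M0505 and 8.67, 8.46 and 8.46 in STOSE cells and was 1.77-fold higher (adjusted p = 2.42e-04). Abcb8, a mitochondrial member, read 7.83, 8.03 and 7.96 against 7.39, 7.26 and 7.20 and was 1.58-fold lower (adjusted p = 1.31e-04). In neither gene did the arrays of the lines overlap. Abcb10, which acts in heme synthesis, and the lysosomal peptide transporter Abcb9 had log2 fold changes of 0.02 and -0.00, with 95% confidence intervals of -0.13 to 0.16 and -0.17 to 0.17. The bile transporters Abcb4 and Abcb11 and the melanocyte gene Abcb5 were under the background level in both lines, although Abcb11 (0.27) passed the adjusted p there.

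Of 18 heme and iron-sulfur cluster genes, 1 was called, Slc25a37 (mitoferrin 1), which carries iron into mitochondria. It read 7.03, 7.07 and 6.75 in M0505 and 8.76, 8.41 and 8.19 in STOSE cells, a log2 fold change of 1.51 (adjusted p = 4.19e-05). The 1 call is 5.56% of the list, against 4.9% of all genes called higher, and 0 of the list against 7.59% were called lower. At the adjusted p alone 4 genes of the list were higher and 7 were lower (22.2% and 38.9%, against 31.6% and 24.8% of all genes), and the median log2 fold change was -0.01, or 0.19 with array medians centred.

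The members of subfamily C outside drug efflux differed little. Abcc12 was lower (log2 fold change -0.35, adjusted p = 0.0498) and Abcc6, the ATP release gene mutated in pseudoxanthoma elasticum, was higher (0.25, adjusted p = 0.0444), both close to the threshold. Abcc8 and Abcc9, the sulfonylurea receptors that regulate ATP-sensitive potassium channels, did not pass (0.09 and 0.14). Their channel partners had opposite signs: Kcnj8 was lower (-0.86, adjusted p = 5.44e-04) and Kcnj11 was higher (0.28, adjusted p = 0.00514), neither past 2-fold.

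Glutathione is the co-substrate of several ABCC exporters, and the genes of its supply and transfer moved in both directions. Of 16 genes, 4 were called higher and 2 lower (25% and 12.5%, against 4.9% and 7.59% of all genes). Of the 16, 6 were higher and 4 lower at the adjusted p alone (37.5% and 25%, against 31.6% and 24.8%). Ggt5, which cleaves glutathione conjugates outside the cell, had the largest fold change of the list, reading 8.95, 9.18 and 9.08 in M0505 and 4.68, 4.77 and 4.48 in STOSE cells, at least 20.4-fold lower against the background level. Mgst3, Mgst1 and Gstp1, which conjugate or reduce with glutathione, rose by 1.96, 1.62 and 1.15 on the log2 scale, and Gstm1 fell by 1.09. Slc7a11, the cystine carrier, read 7.82, 5.68 and 6.44 in M0505 and 8.26, 8.29 and 8.40 in STOSE cells. The STOSE arrays were all higher, but the M0505 arrays spread widely (log2 fold change 1.67 ± 0.45 SE, adjusted p = 0.0123).

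Subfamily D was small and changed little. Abcd3, a peroxisomal member that imports branched chain fatty acids and bile acid precursors, read 8.74, 8.77 and 8.65 in M0505 and 8.39, 8.42 and 8.36 in STOSE cells. The lines did not overlap, and it was 1.26-fold lower (adjusted p = 0.00147), short of 2-fold. Abcd2, a peroxisomal fatty acid transporter, was under the background level in both lines (log2 fold change -0.15, adjusted p = 0.152). Abcd4, the lysosomal cobalamin transporter, read 7.48, 7.67 and 7.60 against 7.54, 7.70 and 7.60, and its log2 fold change of 0.03 had a 95% confidence interval of -0.14 to 0.20.

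Many peroxisome genes that work beside subfamily D were lower in STOSE cells. Of 21 measured genes of peroxisome assembly and fatty acid oxidation (22 listed), 0 were called higher and 4 lower (19.0%, against 7.59% of all genes), and 3 were higher and 14 lower at the adjusted p alone (66.7%, against 24.8%). Pex7, the import receptor for a class of matrix enzymes, read 8.18, 8.30 and 8.44 in M0505 and 5.99, 6.25 and 6.12 in STOSE cells, and fell by 2.19 on the log2 scale. Acox3 and Ehhadh, enzymes of peroxisomal fatty acid oxidation, fell by 1.69 and 1.18. The list had a median log2 fold change of -0.72, and of -0.52 with array medians centred.

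The genes without membrane domains were higher in STOSE cells or did not pass. Abce1, the ATPase that splits ribosomes after termination, read 10.21, 10.08 and 10.14 in M0505 and 10.99, 10.94 and 11.07 in STOSE cells. It was 1.81-fold higher without overlap (log2 fold change 0.86 ± 0.06 SE, adjusted p = 8.46e-06) and passed 2-fold with array medians centred (1.06). Abcf1, which acts in translation initiation, read at most 9.17 in the M0505 arrays and at least 9.48 in the STOSE arrays and was 1.44-fold higher (adjusted p = 9.11e-04). Abcf2 read 9.72, 9.72 and 9.71 against 10.12, 10.06 and 10.07 and was 1.29-fold higher (adjusted p = 4.80e-04). Abcf3 read 8.59, 8.72 and 8.63 against 8.66, 8.60 and 8.50, overlapping, with a log2 fold change of -0.06 that turned to 0.14 with array medians centred. Of 14 measured ribosome recycling and initiation genes (16 listed), 0 were called, and 8 were higher and 3 lower at the adjusted p alone (57.1% and 21.4%, against 31.6% and 24.8% of all genes).

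3 genes belong to the superfamily but carry other symbols. Cftr, the chloride channel of subfamily C, read 6.96, 6.57 and 6.55 in M0505 and 3.87, 3.90 and 3.68 in STOSE cells. The STOSE arrays were all under the background level, and Cftr was at least 3.92-fold lower against it (fitted log2 fold change -2.88, adjusted p = 3.15e-07). Tap1 and Tap2, which form the peptide transporter that feeds antigen presentation, had opposite signs: Tap1 was lower (-0.59, adjusted p = 3.78e-04) and Tap2 higher (0.59, adjusted p = 3.23e-05), both short of 2-fold.

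Carriers that bring drugs and copper into cells form the other side of drug handling. The list of 27 genes also held Atp7a and Atp7b, pumps that export copper, and Slc47a1, an antiporter that exports organic cations, none of them called. Of the 27 genes 3 were called higher and 3 lower (11.1% each, against 4.9% and 7.59% of all genes). At the adjusted p alone 10 were higher and 6 lower (37.0% and 22.2%), near the 31.6% and 24.8% of all genes. Slc46a1, the proton-coupled folate transporter that also takes up antifolates, read 10.14, 10.13 and 10.18 in M0505 and 7.35, 7.48 and 7.54 in STOSE cells, and fell by 2.69 on the log2 scale. Another folate carrier of the list, Slc19a1, went the other way. It was 1.98-fold higher in STOSE cells without overlap (adjusted p = 5.89e-05), just short of 2-fold. The nucleoside carriers Slc29a2 and Slc29a1, which also admit nucleoside drugs, rose by 1.53 and 1.38, and the lysosomal member Slc29a3 fell by 1.24. The prostaglandin carrier Slco2a1 rose by 2.20, and the carnitine carrier Slc22a5 fell by 1.03. Slc31a1, the copper transporter linked to platinum uptake, was lower by less than 2-fold (-0.17, adjusted p = 0.0398), with log2 values of 9.86, 9.95 and 9.94 against 9.67, 9.77 and 9.79, and was named for that role after its value was seen. The difference of Slc31a1 is smaller than the 0.20 that centring the array medians adds, so its direction turns under centring.

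Among 18 transcriptional regulators known to act on efflux genes, 1 was called higher and 3 lower (5.56% and 16.7%, against 4.9% and 7.59% of all genes). More were higher than lower at the adjusted p alone, 8 against 5 (44.4% and 27.8%, against 31.6% and 24.8%), and the median log2 fold change was 0.18, or 0.38 with array medians centred. Esr1, the estrogen receptor, read 9.19, 9.26 and 9.29 in M0505 and 5.78, 5.71 and 5.85 in STOSE cells, and fell by 3.47 on the log2 scale. Pgr, the progesterone receptor, fell by 1.54 to values under the background level, at least 2.06-fold, and Nr1h4, the bile acid receptor, fell by 1.29. Ahr, the aryl hydrocarbon receptor, rose by 1.10 (adjusted p = 2.07e-04). Nr1i2 and Nr1i3, the xenobiotic receptors of liver, were under the background level in both lines.

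Genes of other cell types were measured beside these results, and the sums and the brightest probe set of each list are given as brightness only. Of 9 granulosa and steroidogenic markers, 2 were called lower (Star and Inha, with log2 fold changes of -5.97 and -3.93), and the summed linear value of the list was 3549, 3591 and 3577 in the M0505 arrays and 287, 277 and 289 in the STOSE arrays, with Star the brightest and Cyp11a1, Cyp17a1 and Cyp19a1 under the background level. Of 9 endothelial markers, 2 were called lower (Kdr, under the background level in STOSE cells and at least 28.9-fold lower against it, and Esam, with a log2 fold change of -2.77), with sums of 1217, 1320 and 1227 against 283, 275 and 302, Kdr the brightest and Pecam1 and Emcn under the background level. Of 10 measured leukocyte markers, 1 was called lower (Cd68, -2.82), with sums of 885, 1142 and 1141 against 341, 305 and 300, Cd68 the brightest and Ptprc and Csf1r under the background level. Of 8 fibroblast markers, Thy1 was called higher (1.49) and Col1a2 lower (-2.45), with sums of 5098, 5429 and 5465 against 5056, 5253 and 5271, Dcn the brightest and Lum and Tcf21 under the background level. The 11 mesothelial markers, 4 of them called lower, summed to 22508, 23469 and 23256 against 11816, 12371 and 12574, with Upk3b the brightest. Of 6 hepatocyte and enterocyte markers 0 were called, 0 passed the adjusted p and 5 were under the background level, among them Alb; the sums were 78.2, 78.7 and 76.7 against 80.2, 79.5 and 86.4, with Vil1 the brightest. Several markers went the other way from the genes called lower at the adjusted p alone. In the granulosa list 3 genes were then higher and 3 lower, in the endothelial list 2 were higher (Flt1, 0.24, and Cdh5, 0.20) and 3 lower, in the leukocyte list 4 were higher (Lyz2, Cd79a, Fcer1g and Cd3e, from 0.22 to 0.56) and only Cd68 lower, and in the fibroblast list 4 were higher and 2 lower. The median log2 fold change was 0.11, 0.06, 0.12 and 0.24 in these 4 lists, and 0.31, 0.26, 0.32 and 0.44 with array medians centred. The mesothelial list went 1 way at the adjusted p alone. Of its 11 genes 0 were higher (against 31.6% of all genes) and 8 were lower (72.7%, against 24.8%). Its median was -0.63, and -0.43 with array medians centred. Without the called genes (among them Star, Inha, Kdr, Esam and Cd68) the granulosa sums ran from 195 to 211 in M0505 and from 180 to 197 in STOSE cells. They ran from 206 to 220 and from 214 to 244 for the endothelial list, and from 164 to 168 and from 185 to 197 for the leukocyte list. For the fibroblast list they ran from 4473 to 4846 and from 4139 to 4415. The mesothelial sums ran from 13692 to 14092 and from 9938 to 10419, lower in STOSE cells. The genes left out were chosen by their change, so these sums cannot show whether the share of a cell type changed. The share of each list called lower was 36.4% for mesothelial, 22.2% for granulosa, 22.2% for endothelial and 12.5% for fibroblast markers, with 1 of the 10 leukocyte markers, against 7.59% of all genes. The part of these markers in the ABC results was not tested.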

How the data were processed

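Total RNA of 3 M0505 and 3 STOSE samples was hybridised to Affymetrix Mouse Gene 1.0 ST arrays. The deposited log2 values were made by the authors with RMA in Affymetrix Expression Console; the software version, annotation release and build are not given in the sources used here. The deposited table also holds line means and fold changes, which were not used, and 0 columns per sample were left unmapped. Of 28944 probe sets, 23530 carried a symbol, and the brightest probe set on average stood for each of 20405 genes. STOSE minus M0505 was fitted with limma 3.58.1 (lmFit and eBayes, prior degrees of freedom 4.07) in R 4.3.3, with Benjamini-Hochberg adjustment over all genes, after the script had been tested on simulated data. RMA compresses differences of dim probe sets, and the 6 arrays limit the precision. Where a called gene named in the text lay under the background level in STOSE cells, a bound against that level was given, in some cases beside the fitted value.

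The ABC genes, lists and markers were chosen with earlier results of these data known. Named with values were the drug efflux genes, called members, members of subfamilies of 4 or fewer and called genes of each list (at most 6); other genes were named for context after their values were seen. Values of a few genes that enter the counts are not reported here. Promoters and gene order were matched by symbol to RefSeq GRCm38.p6 (19899 genes placed), and motifs were searched on both strands. Alternatives were another normalization, filters on dim genes, the mean of probe sets, limma with trend and robust settings, the methods' t-test, other thresholds, the replicate number as a block, and each array left out.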

Additional observations from a re-analysis of the deposited data

How the results depend on the processing

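The count of ABC genes called higher (1) became 2 after quantile normalization, 4 with array medians centred (Abcg2, Abce1 and Abcb6 joining Abca1) and 11 at the adjusted p alone, and ran from 1 to 2 with each array left out, Abcg2 joining without M0505 replicate 1 or STOSE replicate 1. The count called lower (6) became 3 when the dimmest 50% of genes were left out, since Abca5, Abca6 and Abcc3 were then not tested, 18 at the adjusted p alone and 2 at a 4-fold threshold (Abca6 and Abcc3). It was 5 with the mean of probe sets, without Abca3, and ran from 6 to 8 with each array left out, Abca7 and Abcc10 joining without STOSE replicate 1. For all genes the counts were 6454 higher and 5066 lower at the adjusted p alone and 186 and 509 at 4-fold, against 1000 and 1548, and with array medians centred 1466 and 1177. The log2 fold change of Abcb1b turned to 0.050 with array medians centred and ran from -0.38 to 0.29 with each array left out. Under centring Abcc2 turned to 0.092, Abcd2 to 0.046 and Abcf3 to 0.14, and Abcd4 ran from -0.021 to 0.071 with each array left out. None of these 5 passed the adjusted p on the deposited values with all arrays; Abcd4 did with array medians centred (0.23, adjusted p = 0.0194) and Abcc2 after quantile normalization (-0.19, adjusted p = 0.0213), as did Abcb1b without M0505 replicate 1 (0.29, adjusted p = 0.0319) and Abcd2 without STOSE replicate 1 (-0.24, adjusted p = 0.0233), and the cause was not tested. In all, 9 members changed sign under centring and 2 under quantile normalization, 0 of the 9 being past the adjusted p. Without M0505 replicate 1, the log2 fold change of Abcg2 was 1.03. With the replicate number as a block, 1 ABC gene was higher and 6 lower, and 1001 and 1548 of all genes. The deviations of same-numbered arrays correlated at 0.26, 0.04 and 0.25, and those of differently numbered arrays from -0.29 to 0.12. Replicates 1 and 3 thus matched best by number, whereas STOSE replicate 2 correlated best with M0505 replicate 3 (0.12). No label pairs the samples, so the main fit was left unpaired, and whether arrays of the same number share a batch was not tested. The block moved adjusted p both ways, from 0.0498 to 0.00316 for Abcc12 and from 7.88e-08 to 3.36e-06 for Abca2. The methods' t-test, adjusted, gave 1 higher and 6 lower, as did limma with trend and robust settings. Signal over background limits Abca5 and Abca6, whose STOSE values are bounds, and the 14 members under the background level in both lines, whose differences lie within unspecific signal.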

Other observations

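M0505 replicate 1 also differed from the other M0505 arrays in genes beside the drug efflux group, which were picked after their values were seen. Genes of the glutathione list went both ways. Slc7a11 (7.82 against 5.68 and 6.44 on the log2 scale), Gclm (10.93 against 10.30 and 10.37) and Gsr (10.69 against 10.29 and 10.23) were highest in that array. Mgst1 (8.90 against 9.50 and 9.55) and Gstm5 (6.88 against 7.61 and 7.74) were lowest in it. Outside that list, Alas1 (8.57 against 9.01 and 9.07) and Pgr (5.27 against 5.99 and 6.03) were also lowest in it.
Around Abcb1a and Abcb1b, which lie next to each other and to Abcb4 on chromosome 5, the flanking genes Rundc3b and Crot, a peroxisomal carnitine acyltransferase, fell in STOSE cells by 1.28 and 1.93 on the log2 scale. On chromosome 17, Abca17 lies beside Abca3 and had a log2 fold change of -0.21 (adjusted p = 0.202), and Ccnf, the cyclin F gene on the other side of Abca17, rose by 1.52.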
